A study of Bos taurus with 10 samples.

Results

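The simple epithelial keratins KRT8, KRT18, KRT19 and KRT7 were examined in cattle embryos collected on day 7. Every non-control probe that the array files name for one of these genes was taken, which gave 10 probes of 43653 for 4 of the 17499 named genes on the array: 4 probes for KRT8, 3 for KRT18, 2 for KRT19 and 1 for KRT7. The RNA came from embryos flushed from the uterus of superovulated cows on day 7 after the first of their inseminations, which took place at 108 and 120 h of superovulation. The labels give 2 samples as DMSO vehicle. For 4 samples the cows had received senktide, which activates the neurokinin-3 receptor, by intravenous infusion at 30 nmol/min for 2 h from 48 h of superovulation, and for another 4 samples at 300 nmol/min. The question put was the effect of senktide on embryo quality and developmental stage. Each sample was hybridised to 1 array of a 1-colour Agilent design. Neither the donor cow nor the number of embryos behind a sample is labelled, so a p-value here speaks to the spread between samples, part of which may be technical.

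Keratins are the intermediate filament proteins of epithelia, and a filament always pairs a type I with a type II chain. KRT8 and KRT7 are type II chains, while KRT18 and KRT19 are type I chains. KRT8 with KRT18 is the first keratin pair made in mammalian development and fills the trophectoderm, the outer epithelium of the blastocyst that contributes to the placenta. KRT19 and KRT7 are further partners in simple epithelia, and KRT7 is a widely used marker of human trophoblast.

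Probes of one gene differed in whether they were measured, so their sequences are shown first. For each of the 4 genes the probe with the highest listed start in the transcript held AATAAA, the canonical polyadenylation signal, and the other 6 keratin probes did not. Starts are those the array files list, counted in the transcript named for each probe, which is not the same transcript for both KRT19 probes. A window of 30 bases of each of these 4 probes, with the motif in capitals, reads 5′ to 3′ as follows.
KRT8, probe start 1664: tgtaagcgtctttttcagAATAAAtccaat
KRT18, probe start 1336: gagcaggagatcAATAAAagttgagacatt
KRT19, probe start 1303: tctccccctgacctgccAATAAAactttat
KRT7, probe start 1525: agaatagcttccAATAAAgcagctgctttc
These windows begin at base 31, 20, 31 and 18 of their probes. One upstream probe of KRT8, KRT18 and KRT19 is shown whole for contrast, with nothing marked.
KRT8, probe start 767: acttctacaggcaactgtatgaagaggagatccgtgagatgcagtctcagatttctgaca
KRT18, probe start 978: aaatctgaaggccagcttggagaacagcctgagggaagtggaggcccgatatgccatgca
KRT19, probe start 1083: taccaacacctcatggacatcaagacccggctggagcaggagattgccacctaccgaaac
Of all 43653 probes, 4083 (9.35%) held AATAAA on the strand of the probe, and 1510 (3.46%) held its reverse complement, TTTATT, which no keratin probe held. Probes with AATAAA were well above background on all 10 arrays in 14.96% of cases, against 4.75% of probes without it. They were so on no array in 53.0% of cases, against 76.6%. Here "well above background" is the scanner software's own flag for a spot. Whether the wider detection of such probes reflects their place in the transcript was not tested.

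In the files' build, Btau_3.1, KRT18 and KRT8 lay next to each other on chromosome 5 and pointed away from each other. The KRT18 probes were on the minus strand, at chr5:29955923-29955981, chr5:29956573-29956818 and chr5:29956921-29957082 for starts 1336, 978 and 816. The KRT8 probes were on the plus strand, at chr5:29997842-29997901, chr5:30001773-30002266, chr5:30002293-30002931 and chr5:30005397-30005456 for starts 140, 681, 767 and 1664. The nearest KRT18 and KRT8 probe ends were 40760 bases apart. KRT7 was on the same chromosome at chr5:30558808-30558867 on the minus strand, 553352 bases from the nearest KRT8 probe. KRT19 was on chromosome 19, minus strand, at chr19:43089286-43089345 for start 1303 and chr19:43089461-43089520 for start 1083. Probes of KRT8 at starts 681 and 767 and of KRT18 at 816 and 978 spanned 494, 639, 162 and 246 bases of genome with 60 bases of probe, so they crossed exon junctions. A check of these probes against other keratin transcripts was not made here, since no bovine transcript sequences were at hand.

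KRT8 was measured on every array, but at 1 of its 4 probes. The probe at start 1664 lay at 109 to 1140 times the lowest signal well above background on the same array. The other KRT8 probes lay at or near background: start 767 was well above it on 6 arrays, start 140 on 2 and start 681 on 1. KRT18 was measured on all 10 arrays by each of its 3 probes, starts 816, 978 and 1336. KRT19 was measured on all 10 arrays at start 1303 but on 3 at start 1083. KRT7 was well above background on 3 arrays, those of 30 nmol/min replicates 3 and 4 and 300 nmol/min replicate 3.

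**Figure D1:**
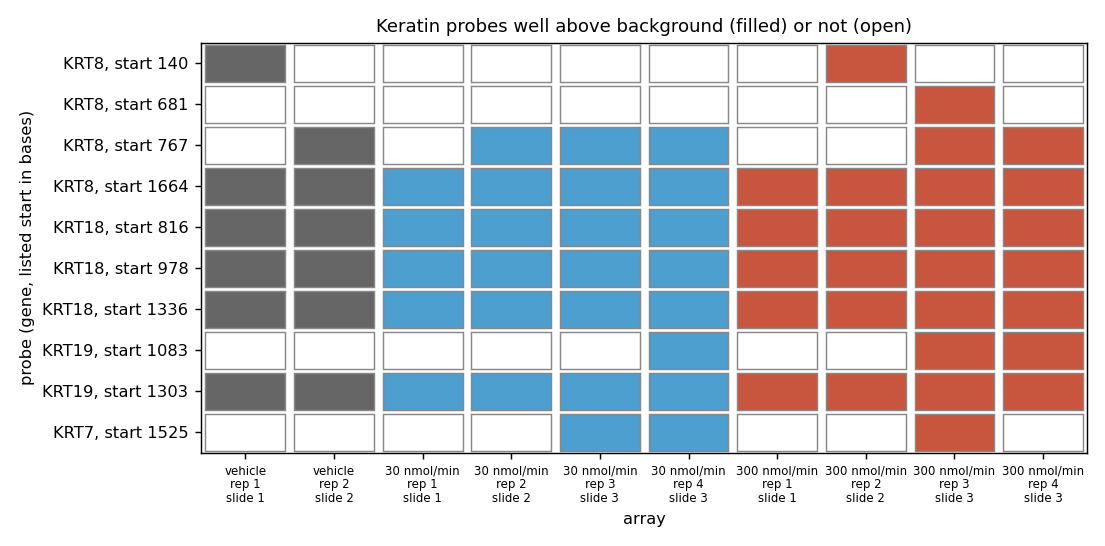
Detection of the 10 keratin probes (rows, by gene and listed start in bases) on the 10 arrays (columns, by group, replicate and slide): a filled square is a spot well above background. The 3 KRT18 probes and 1 probe each of KRT8 and KRT19 were filled on all 10 arrays, and the filled squares of KRT19 start 1083 and of KRT7 all lie on slide 3.

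Detection moved with the slide. Each group had 1 array on slide 1 and 1 on slide 2. The remaining senktide arrays, replicates 3 and 4 of either dose, were on slide 3, which had no vehicle array. The share of spots well above background was 18.3% to 19.6% on slide 3, against 7.17% to 11.53% on slide 1 and 8.77% to 13.2% on slide 2. By group it was 7.17% to 9.44% on vehicle arrays, 8.77% to 19.6% on those of 30 nmol/min and 10.47% to 19.6% on those of 300 nmol/min. All 3 arrays with KRT7 and all 3 with KRT19 start 1083 well above background were on slide 3, and neither probe was so on the 6 arrays of slides 1 and 2. That neither was measured with vehicle cannot be told apart from the absence of vehicle arrays on slide 3.

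Trophectoderm and other markers were set beside the keratins. Of 7 trophectoderm markers, KRT8, KRT18, GATA2, GATA3 and TFAP2C were well above background on all 10 arrays, TFAP2A on 1 and CDX2, a defining trophectoderm factor, on none. Of 6 inner cell mass markers SOX2 was so on 10 arrays, POU5F1 and DPPA3 on 4, FGF4 on 2, SALL4 on 1 and NANOG on none. Of 6 primitive endoderm markers HNF4A was so on 10, LAMB1 on 9, PDGFRA on 6 and GATA4, GATA6 and SOX17 on none. None of 17 probes for 7 cumulus and granulosa genes was well above background on any array, among them AMH and CYP19A1. Markers of uterine and oviduct epithelium, which makes simple keratins too, were at or near background: OVGP1, PAEP and FOXJ1 on no array, MUC1 and LTF on 1 and CLU on 7. That list also held KRT5, the type II keratin of basal cells, on 5 arrays, and KRT14 and KRT15 on 1. The 30 probes of the list summed to 172 to 182 units of processed signal on vehicle arrays, 181 to 220 at 30 nmol/min and 143 to 254 at 300 nmol/min. Among stromal genes COL1A1 and VIM were measured on no array, COL1A2 on 3 and DCN on 2, and among leukocyte genes PTPRC was on 5 and ITGB2 on 4, with CD14 on none. HBA was measured on 4 arrays, with HBB and ALAS2 on none. The extraction protocol refers to endometrial material, although every other label names embryos.

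KRT8, the type II partner, gave processed signals (start 1664, arbitrary units before any scaling between arrays) of 1466 and 1835 with vehicle. They were 3891, 1677, 8510 and 6334 at 30 nmol/min, and at 300 nmol/min 4130, 2607, 11325 and 8053. The 4 highest were the 4 arrays of slide 3. Over the 10 arrays the highest signal was 7.73 times the lowest, and log2 signal followed the array's own scale closely (r = 0.97, a description of 10 arrays that share this scale). Differences between groups were therefore read on scaled values, log2 of the signal minus the array's 75th percentile among 2492 probes that carried the flag on all 10 arrays.

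On that scale KRT8 stood at 4.21 and 3.89 with vehicle, at 4.44, 4.07, 4.41 and 3.96 at 30 nmol/min, and at 4.52, 4.24, 4.75 and 4.06 at 300 nmol/min. All 8 senktide arrays lay above the lower vehicle array, and the groups overlapped. KRT8 averaged 4.39 ± 0.30 (SD, n = 4) at 300 nmol/min, against 4.05 ± 0.22 (n = 2) with vehicle, a difference of 0.34 (SE 0.25, 95% interval −0.22 to 0.91), or 1.27-fold. The 30 nmol/min mean was 4.22 ± 0.24 (n = 4), 0.17 above vehicle (SE 0.25, −0.39 to 0.74). The adjusted p-values, from limma over all 8936 tested probes with Benjamini-Hochberg adjustment, were 0.519 for 300 and 0.795 for 30 nmol/min. Between the doses KRT8 differed by 0.17 (300 minus 30 nmol/min, SE 0.21, −0.29 to 0.63, adjusted p = 1.00). Within slides 1 and 2, KRT8 was 0.32 and 0.34 higher at 300 nmol/min than with vehicle and 0.24 and 0.18 higher at 30 nmol/min. Those within-slide values rest on 1 array a group.

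**Figure D2:**
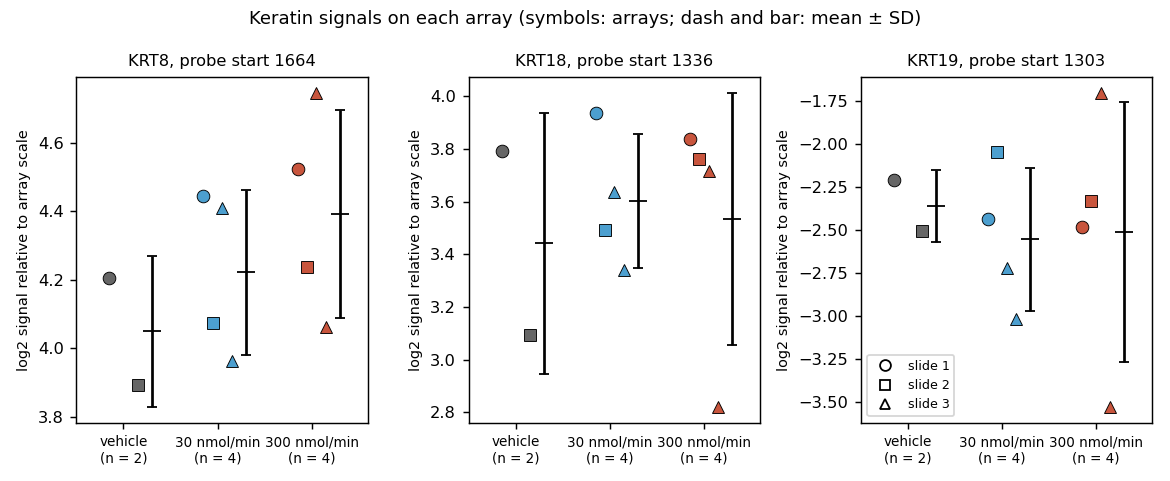
Scaled log2 signal (y) of the KRT8, KRT18 and KRT19 probes with the highest mean, by group (x: vehicle, 30 and 300 nmol/min senktide), with 1 symbol an array shaped by slide, and mean ± SD beside it. The groups overlap in each panel, and 300 nmol/min replicate 4 is the lowest array for KRT18 (2.82) and for KRT19 (−3.53).

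The upstream KRT8 probes gave little that could be compared. Start 767 was well above background on 1 of 2 vehicle arrays, 3 of 4 at 30 nmol/min and 2 of 4 at 300 nmol/min, with signals of 2.95 to 41.5. It differed by 0.06 at 300 nmol/min (SE 0.63, −1.36 to 1.48, adjusted p = 0.975) and by 0.20 at 30 nmol/min (SE 0.63, adjusted p = 0.912) from vehicle. Start 140, near the 5′ end, gave signals of 3.75 to 19.8 and was well above background on 1 vehicle array, on none at 30 nmol/min and on 1 at 300 nmol/min. Its scaled values were −7.01 to −3.15 at 300 nmol/min, against −2.74 and −2.01 with vehicle, so these groups did not overlap, but adjusted p was 0.364 and groups did not overlap for 25.5% of all tested probes in that comparison. Against start 1664 its r over the 10 arrays was −0.12 on the scaled values and −0.69 before scaling, for a probe measured on 2 of them. Start 681 was well above background on 1 array and was not tested.

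KRT18, the type I partner, gave processed signals at start 1336 of 1101 and 1053 with vehicle, of 2738, 1121, 4976 and 4114 at 30 nmol/min, and at 300 nmol/min 2569, 1874, 5544 and 3403. Scaled, these were 3.79 and 3.09 with vehicle, 3.94, 3.49, 3.64 and 3.34 at 30 nmol/min, and at 300 nmol/min 3.84, 3.76, 3.72 and 2.82. Both vehicle arrays lay inside the span of the 300 nmol/min arrays. KRT18 averaged 3.53 ± 0.48 (SD, n = 4) at 300 nmol/min, against 3.44 ± 0.50 (n = 2) with vehicle, a difference of 0.09 (SE 0.34, −0.66 to 0.84, adjusted p = 0.913). The mean at 30 nmol/min was 3.60 ± 0.25 (n = 4), 0.16 above vehicle (SE 0.34, −0.59 to 0.91, adjusted p = 0.868). The 300 minus 30 nmol/min difference was −0.07 (SE 0.27, −0.68 to 0.55, adjusted p = 1.00). The direction rested on single arrays: without vehicle replicate 2 or without vehicle replicate 1 the 300 nmol/min difference ranged from −0.26 to 0.44. Within slides 1 and 2 it was 0.05 and 0.67 at 300 nmol/min, while the 30 nmol/min difference was 0.14 and 0.40.

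The other KRT18 probes passed no test either. Start 978 read 188 and 213 with vehicle, 391, 261, 1017 and 798 at 30 nmol/min, and at 300 nmol/min 357, 277, 1014 and 724. Its scaled difference from vehicle was −0.05 at 300 nmol/min (SE 0.25, −0.60 to 0.50, adjusted p = 0.934) and 0.19 at 30 nmol/min (SE 0.25, −0.36 to 0.75, adjusted p = 0.762). Start 816, with signals of 27.8 to 138.7, differed by −0.13 (SE 0.29, adjusted p = 0.846) and by 0.09 (SE 0.29, adjusted p = 0.914). The probes did not share a sign at 300 nmol/min.

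Within an array the KRT18 probes could be set against each other free of scaling, where only the change between arrays has meaning. Log2 of start 1336 minus log2 of start 978 was 2.43 ± 0.17 with vehicle (SD, n = 2), 2.39 ± 0.30 at 30 nmol/min and 2.57 ± 0.28 at 300 nmol/min (n = 4 each), and ran over the arrays between 2.10 and 2.85. Start 978 minus start 816 held within 2.71 and 3.08. Starts 978 and 816 also varied together most closely (r = 0.93 over 10 arrays on the scaled values), while start 1336 followed them at r = 0.69 and 0.65. The pair that crossed exon junctions thus ran closer to each other than to the AATAAA probe, as a description of 10 arrays.

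KRT19, a second type I chain, lay nearer to background. Start 1303 gave processed signals of 17.1 and 21.7 with vehicle, 33.0, 24.1, 60.8 and 50.1 at 30 nmol/min, and at 300 nmol/min 32.1, 27.4, 129 and 41.7, which is 1.27 to 13.0 times the lowest signal well above background on the same array. Scaled, it stood at −2.21 and −2.51 with vehicle, at −2.44, −2.05, −2.72 and −3.02 at 30 nmol/min, and at −2.48, −2.33, −1.71 and −3.53 at 300 nmol/min. The 300 nmol/min group held both the highest and the lowest array. It averaged −2.51 ± 0.76 (SD, n = 4) at 300 nmol/min, against −2.36 ± 0.21 (n = 2) with vehicle, a difference of −0.15 (SE 0.45, −1.16 to 0.85, adjusted p = 0.892). With 30 nmol/min it averaged −2.56 ± 0.41 (n = 4), a difference from vehicle of −0.20 (SE 0.45, −1.20 to 0.81, adjusted p = 0.878). Between the doses it was 0.04 (SE 0.37, −0.78 to 0.87). With all probes as the base of the 75th percentile the differences were 1.02 at 300 and 0.86 at 30 nmol/min. That base adds one number per array to every probe, and the median of all tested probes was then 1.06 and 0.95.

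The second KRT19 probe, start 1083, was well above background on no vehicle array, 1 array at 30 nmol/min and 2 at 300 nmol/min. Its scaled values of −4.29 to −3.73 at 300 nmol/min did not overlap −2.87 and −2.01 with vehicle, and limma gave unadjusted p = 0.0304 and adjusted p = 0.322. For 30 nmol/min the unadjusted p was 0.0188 and the adjusted p 0.371, with overlapping groups. Since the vehicle arrays held no measured value, no fold is given. The vehicle signals, 19.7 and 16.8, lay among signals of 9.40 to 31.8 on the senktide arrays. The array scale that each signal is divided by was 99.6 to 481.9 units on senktide arrays, against 79.5 and 124 units on vehicle arrays. Unadjusted p-values under 0.05 made up 13.8% of all tested probes at 300 nmol/min and 11.3% at 30 nmol/min.

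KRT7 gave signals of 2.72 and 2.51 with vehicle, 5.21, 2.59, 16.6 and 15.8 at 30 nmol/min, and at 300 nmol/min 3.04, 5.99, 10.2 and 7.58 at its single probe, start 1525. The 3 spots well above background read 16.6, 15.8 and 10.2. No fold against vehicle can be given, since no vehicle array measured it and the bound was under 1. Between the doses it was well above background on 1 of 4 arrays at 300 nmol/min and 2 of 4 at 30 nmol/min, too few for a difference to be read.

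None of the 9 tested keratin probes passed an adjusted p of 0.05 in any comparison, and 2 of them, those near background at KRT8 start 140 and KRT19 start 1083, had groups that did not overlap, both at 300 nmol/min against vehicle. Over all 8936 tested probes limma called 0.0112% (1 probe, not a keratin) at 300 nmol/min against vehicle, where 13.8% had an unadjusted p under 0.05 and groups did not overlap for 25.5%. Blocking on replicate number removed that call. It called 0% at 30 nmol/min against vehicle, where 11.3% had an unadjusted p under 0.05 and groups did not overlap for 19.5%. Between the doses it also called 0%, where 3.01% had an unadjusted p under 0.05 and 2.7% did not overlap, and blocking on replicate number gave 1 call, not a keratin. The counts rested on single vehicle arrays: without vehicle replicate 1 limma called 32 probes at 300 and 34 at 30 nmol/min, and without vehicle replicate 2 it called 50 and 36. A p that misses the threshold does not show that the keratins were alike in the groups: the intervals allow KRT8 to be from 0.857-fold to 1.88-fold at 300 nmol/min, KRT18 from 0.632-fold to 1.80-fold and KRT19 from 0.447-fold to 1.81-fold of vehicle. In bulk embryo RNA, the number of trophectoderm cells and the keratin RNA in each of them cannot be told apart.

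**Figure D3:**
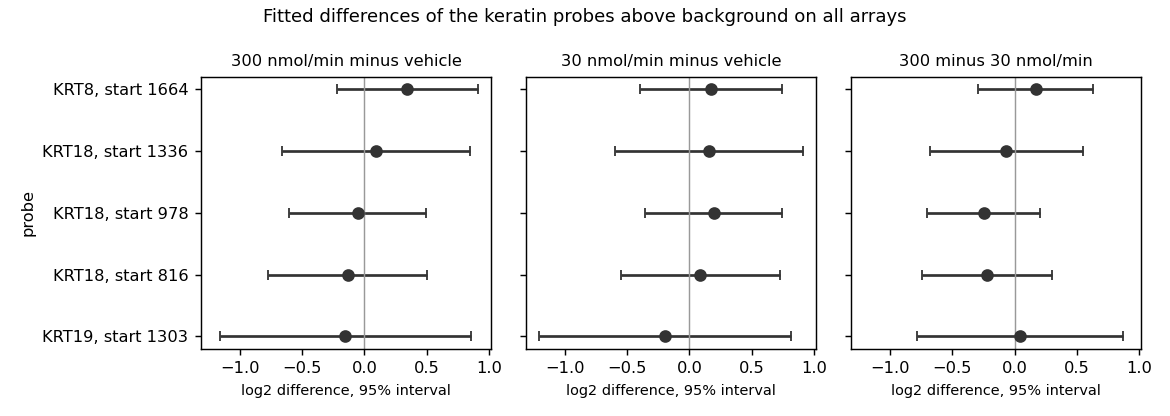
Fitted log2 differences (x, with 95% intervals from limma) of the 5 keratin probes well above background on all 10 arrays (rows), for 300 nmol/min minus vehicle, 30 nmol/min minus vehicle and 300 minus 30 nmol/min. Each interval includes 0, and the KRT19 intervals are the widest of the 5 in each panel.

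The size of the keratin differences depended on how arrays were put on one scale, as did that of the arrays' other probes. With the detected probes as the base, the median of all tested probes was −0.11 at either dose against vehicle, and 40.6% of them were positive at 300 nmol/min and 40% at 30 nmol/min. With the 75th percentile of all probes as the base, that median was 1.06 at 300 nmol/min and 0.95 at 30 nmol/min, and 92.2% and 91.9% of probes were positive. KRT8 was then 1.52 above vehicle at 300 nmol/min (adjusted p = 0.327) and 1.23 at 30 nmol/min (adjusted p = 0.437), and KRT18 was 1.26 and 1.22 above it. Relative to the median of all tested probes, KRT8 lay 0.45 higher at 300 nmol/min and KRT18 0.20 higher, which is the same by arithmetic for any base that subtracts one number per array. Under quantile normalization KRT8 lay 0.12 above that median and KRT18 lay −0.25 from it, so the sign of KRT18 relative to other probes depended on the scaling. With normexp background correction and quantile normalization the KRT8 difference was 0.46 at 300 nmol/min (0.11 to 0.80, adjusted p = 0.163) and 0.41 at 30 nmol/min (0.06 to 0.76, adjusted p = 0.251).

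**Figure D4:**
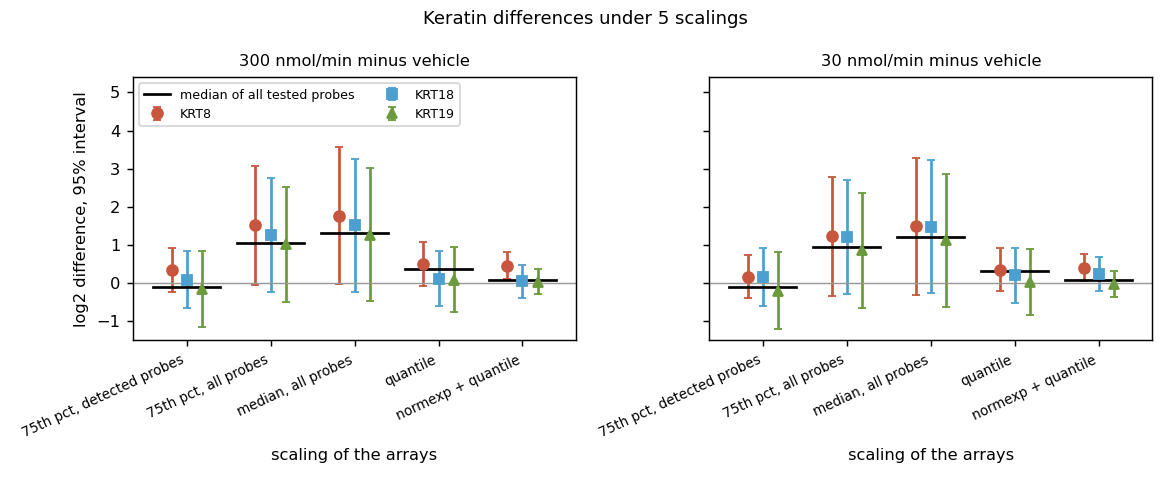
Log2 differences from vehicle (y, with 95% intervals) of KRT8, KRT18 and KRT19 under 5 scalings of the arrays (x), at 300 nmol/min (left) and 30 nmol/min (right). The black line is the median of all tested probes under the same scaling, and the 3 keratins lie between 0.86 and 1.77 where all probes set the base and that median is 0.95 to 1.32.

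KRT8 at start 1664 and KRT18 at start 1336 varied together over the arrays. Their scaled values correlated at Pearson's r = 0.69 (permutation p = 0.0256, n = 10) and Spearman's rho = 0.76 (permutation p = 0.0151). KRT18 starts 978 and 816 were also measured on all 10 arrays, but no correlation with KRT8 was computed for them. On slides 1 and 2 start 978 was highest at 30 nmol/min replicate 2 (1.39), where KRT8 was 4.07. KRT8 was highest on those slides at 300 nmol/min replicate 1 (4.52), where start 978 was 0.99. Both were lowest on those slides with vehicle replicate 2 (start 978 at 0.79, KRT8 at 3.89). The correlation given here therefore covers KRT18 start 1336 alone. Over the 3 pairs of keratins measured on all arrays the adjusted p-values were 0.0575 and 0.0454, so Pearson's r did not pass 0.05 after adjustment. Left out singly, vehicle replicate 2 gave r = 0.61 (exact permutation p = 0.0728, n = 9) and 300 nmol/min replicate 1 gave 0.66 (exact permutation p = 0.0522, n = 9), both p-values above 0.05. Under quantile normalization r was 0.57 (permutation p = 0.0861), and with normexp before it 0.51 (permutation p = 0.132). Without vehicle replicate 2 and 300 nmol/min replicate 3, the arrays farthest from the KRT8 median, r was 0.71 (exact permutation p = 0.0380, n = 8). With group means removed it was 0.77 (permutation p = 0.00776), and over slides 1 and 2 it was 0.90 (exact permutation p = 0.00556, n = 6). With group means removed both vehicle values mirror each other, yet all 10 values were permuted freely. That p is therefore likely too small, and the same limit holds for KRT19 below. No permutation kept arrays within their slide. Slide 3 held 4 arrays, too few for a correlation. Values of 1 array share its scale, so an error in the scale moves both keratins together.

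KRT19 at start 1303, like KRT18 a type I chain, was set against KRT18 at start 1336 and KRT8 at start 1664. With KRT18 it gave r = 0.66 (permutation p = 0.0383, adjusted p = 0.0575, n = 10), which was 0.34 without vehicle replicate 2 and 300 nmol/min replicate 4 (exact permutation p = 0.409, n = 8) and 0.04 within slides 1 and 2 (exact permutation p = 0.925, n = 6). That relation rested on those samples, although with group means removed it was 0.70 over all 10 arrays (permutation p = 0.0235). With KRT8, its type II partner, it gave r = 0.50 (permutation p = 0.137, adjusted p = 0.137) and rho = 0.49 (permutation p = 0.155). With group means removed that r was 0.64 (permutation p = 0.0398), without vehicle replicate 2 and 300 nmol/min replicate 3 it was 0.32 (exact permutation p = 0.445, n = 8), and over slides 1 and 2 it was −0.27 (exact permutation p = 0.596, n = 6).

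**Figure D5:**
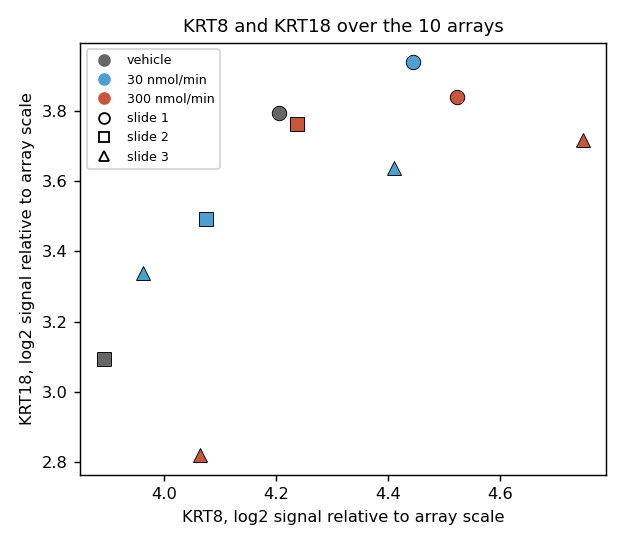
Scaled log2 signal of KRT18 (start 1336, y) against KRT8 (start 1664, x) on the 10 arrays, coloured by group and shaped by slide. The arrays of slides 1 and 2 rise together, and 300 nmol/min replicate 4 on slide 3 lies lowest for KRT18, at 2.82 with KRT8 at 4.06.

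The balance of the pair was also read within arrays, where the scale cancels. Log2 of the KRT8 signal minus log2 of the KRT18 signal was 0.41 and 0.80 with vehicle, 0.51, 0.58, 0.77 and 0.62 at 30 nmol/min, and at 300 nmol/min 0.68, 0.48, 1.03 and 1.24. The value itself compares 2 probes and has no meaning as a ratio of transcripts, but its change between arrays does. The highest 2 were replicates 4 and 3 at 300 nmol/min, both on slide 3. Its mean was 0.86 ± 0.34 at 300 nmol/min, 0.62 ± 0.11 at 30 nmol/min (SD, n = 4 each) and 0.61 ± 0.27 with vehicle (n = 2). By slide it was 0.53 ± 0.14 (n = 3), 0.62 ± 0.17 (n = 3) and 0.92 ± 0.27 (n = 4) for slides 1, 2 and 3. Within slide 3 it was 1.03 and 1.24 at 300 nmol/min, against 0.77 and 0.62 at 30 nmol/min. On slides 1 and 2 the 300 nmol/min values, 0.68 and 0.48, lay between the vehicle values of 0.41 and 0.80. The part of group and of slide was not tested. KRT18 entered at start 1336 only, and the other KRT18 probes read differently. At 300 nmol/min KRT8 differed from vehicle by 0.32 and 0.34 on slides 1 and 2. Start 978 differed by −0.25 and 0.21 and start 816 by −0.36 and 0.17, less than KRT8 on both slides. At 30 nmol/min KRT8 differed by 0.24 and 0.18, start 978 by −0.11 and 0.60 and start 816 by −0.36 and 0.78. There the order changed with the slide. These within-slide values rest on 1 array a group.

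Scaled values of the keratins spread over the 10 arrays by an SD of 0.27 for KRT8 (start 1664) and 0.51 for KRT19 (start 1303). For KRT18 the SD was 0.36 at start 1336, 0.30 at start 816 and 0.25 at start 978. Among the 2492 probes measured on every array the median SD was 0.24. The SD of KRT8 was above that of 63.4% of them. That of KRT18 was above 85.8% at start 1336, 73.7% at start 816 and 57.4% at start 978. That of KRT19 was above 95.6%, for a probe as low as 1.27 times the lowest signal well above background.

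The genes whose scaled values followed KRT8 most closely over the 10 arrays, among 1550 named genes, were HSPH1, a heat shock chaperone (r = 0.90), LGALS3, the lectin galectin-3 (0.90), SELENOP, a secreted selenium carrier (0.90), WIPF1, which binds the WASP actin regulators (0.89), and COTL1, an actin-binding protein (0.89). Among those that followed KRT18 at start 1336 were WIPF1 (r = 0.88), TMEM86A (0.84), PRSS23, a secreted serine protease (0.81), and RPL17, a ribosomal protein (0.81). WIPF1 stood in both lists. The median r over the 1550 genes was −0.07 with KRT8 and 0.04 with KRT18. These are the highest of many values over arrays that share a scale, and they are given with no test.

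Most other keratins of the array were not measured. Of 45 further keratin genes, with 80 probes, 35 were well above background on no array. KRT81, a hair keratin, was so on 9 arrays, all but that of vehicle replicate 1, so vehicle held 1 measured value. Its signals were 14.4 and 17.2 with vehicle, 18.6, 14.7, 31.7 and 32.6 at 30 nmol/min, and at 300 nmol/min 20.0, 21.0, 29.8 and 30.3. Scaled, it differed from vehicle by −0.77 at 300 nmol/min (SE 0.39, adjusted p = 0.395) and by −0.68 at 30 nmol/min (SE 0.39, adjusted p = 0.506). The highest signals before scaling were nevertheless on senktide arrays, so the negative sign belongs to the scaled values only. KRT5, the type II keratin of basal cells, was well above background on 1 of 2 vehicle arrays, 3 of 4 at 30 nmol/min and 1 of 4 at 300 nmol/min, and differed by −1.70 at 300 nmol/min (SE 0.45, adjusted p = 0.216) and −0.61 at 30 nmol/min (SE 0.45, adjusted p = 0.580). Its signals were 8.90 to 23.6 at 300 nmol/min, against 13.1 and 21.3 with vehicle. These overlapped, while the scaled values, −5.19 to −3.55 against −2.60 and −2.53, did not, as for 25.5% of all tested probes. KRT31 and KRT79 were measured on 2 arrays each, and KRT6A, KRT14, KRT15, KRT26, KRT34 and KRT73 on 1.

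Desmosome and plakin genes, which anchor keratin filaments at the cell surface, included 14 on the array and 9 that were tested. At 300 nmol/min against vehicle 0 of the 9 passed the test, with 5 positive and 4 negative differences. Their median was 0.36 beside −0.11 for all tested probes. The 4 negative differences and that median came from genes measured on no vehicle array. The 2 genes measured on all 10 arrays had a median of 0.50 at 300 and 0.21 at 30 nmol/min. DSG2, a desmosomal cadherin, averaged −0.33 ± 0.19 at 300 nmol/min (SD, n = 4), against −0.91 ± 0.09 with vehicle (n = 2), a difference of 0.58 (SE 0.20, adjusted p = 0.278). It stood 0.54 higher at 300 than at 30 nmol/min (SE 0.16, adjusted p = 1.00). JUP, plakoglobin, differed from vehicle by 0.42 (SE 0.19, adjusted p = 0.366) at 300 and by 0.38 (SE 0.19, adjusted p = 0.476) at 30 nmol/min. At 30 nmol/min the median of the 9 was −0.21, with 4 positive and 5 negative.

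Genes of epithelial adhesion and of the apical membrane had 7 tested members, of which 0 passed the test. At 300 nmol/min against vehicle 5 were positive and 2 negative, with a median of 0.41. At 30 nmol/min 3 were positive and 4 negative, with a median of −0.07. The 5 measured on all 10 arrays had medians of 0.41 at 300 and 0.23 at 30 nmol/min. EZR, ezrin of the apical cortex, differed by 0.60 (SE 0.20, adjusted p = 0.275) at 300 and by 0.37 (SE 0.20, adjusted p = 0.497) at 30 nmol/min. At 300 nmol/min the adhesion protein EPCAM differed by 0.42 (SE 0.22, adjusted p = 0.411), β-catenin, CTNNB1, by 0.41 (SE 0.31, adjusted p = 0.523), and E-cadherin, CDH1, by 0.26 (SE 0.22, adjusted p = 0.578).

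Transcription factors of the trophectoderm and of epithelia had 10 tested members, of which 0 passed the test. There were 5 positive and 5 negative differences at 300 nmol/min (median 0.12) and 7 positive and 3 negative at 30 nmol/min (median 0.25). The 4 measured on all 10 arrays had medians of 0.15 at 300 and 0.25 at 30 nmol/min. GATA2 differed by 0.50 (SE 0.23, adjusted p = 0.374) at 300 nmol/min and 0.43 (SE 0.23, adjusted p = 0.488) at 30 nmol/min. TFAP2C differed by 0.39 and 0.54 (SE 0.24 each, adjusted p = 0.458 and 0.440), KLF4 by −0.26 and 0.07 (SE 0.26), and GATA3 by −0.08 and 0.07 (SE 0.25).

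The remaining filament genes and the proteins that bind keratins gave no call either. Of 7 tested intermediate filament genes other than keratins 0 passed, with 4 positive and 3 negative at 300 nmol/min and a median of 0.03. The 3 negative differences and that median came from genes measured on no vehicle array. The 2 genes measured on all 10 arrays had a median of 0.19. The lamins LMNA and LMNB1 differed by 0.32 (SE 0.21, adjusted p = 0.476) and 0.06 (SE 0.22, adjusted p = 0.911), and vimentin, VIM, was well above background on no array. Of 6 tested keratin-binding proteins 0 passed, with 2 positive and 4 negative and a median of −0.08. Only 1 of the 6 was measured on all 10 arrays. YWHAE, a 14-3-3 adaptor, differed by −0.06 (SE 0.25, adjusted p = 0.919).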

How the data were processed

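Total RNA of 10 samples was labelled with Cy3, 1 array each, per the labels. Scanner files as deposited give spot intensity after background subtraction and detrending by Agilent Feature Extraction; per the file headers the version was 11.5.1.1, and per the submitters' processing notes 10.5.1.1. The authors' series matrix is in log2. On every array at least 99.96% of its values lay within 0.01 of log2 processed intensity less the all-probe 75th percentile and the probe's median, so scale, centring and direction are known. Medians of its columns were, for vehicle, 0.22 and 0.12; for 30 nmol/min, 0.045, 0.066, −0.13 and −0.31; for 300 nmol/min, 0.16, −0.18, −0.28 and −0.23. Flags coded 0 or 1 in the deposited files marked spots well above background and outlier spots, and outlier spots were left out. No spot was saturated.

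Scaled values were log2 of the processed signal minus the array's 75th percentile among the 2492 probes flagged well above background on all 10 arrays. In R 4.3.3, limma 3.58.1 (lmFit, eBayes) fitted the 8936 probes well above background on at least 2 arrays, the 3 groups each with a coefficient over 10 arrays, after a test on simulated data. The text names all keratin probes; of each list, up to 4 genes on all 10 arrays with the smallest p at 300 nmol/min, or up to 2 detected on most arrays; and the 5 genes most correlated with KRT8 and with KRT18. One gene that this rule took is not reported here. Further markers were named after their values were seen. Correlations used 100000 permutations, or all of them under 10 arrays. Names were updated through a RefSeq table (20595 probes by accession, 10745 by symbol, 376 by synonym, 708 through a further accession; 2558 under the name in the file; 8671 unnamed). Deviations from group means of same-numbered senktide samples correlated at r = 0.49, 0.49, 0.56 and 0.57. Senktide samples of different number gave 0.54 and 0.49 within slide 3 and 0.41 and 0.42 between slides 1 and 2. The numbers thus cannot be told apart from the slides. With vehicle the pairs gave 0.12 and 0.18 for number 1 and −0.19 and −0.20 for number 2. Deviations of 2 vehicle arrays from their mean mirror each other, so these opposite signs were fixed in advance and cannot bear on pairing. Slide and scan marked the same arrays. Alternatives were other scalings, background corrections, filters, a floor, the slide and the replicate number as blocks, and leaving out each array. The members and lists were chosen with earlier results of these data known. The number of arrays limits the precision.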

Additional observations from a re-analysis of the deposited data

Results flagged for a closer look

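KRT18 at start 1336 stood low on 1 of the 4 arrays at 300 nmol/min: replicate 4 read 2.82 on the scaled log2 scale, and its gap to the next array was 0.880 of the group's range, above the critical value of 0.829 for 4 samples. It was the only one of 22 groups of 4 so marked, and chance marks about 5% of such groups. The same array had the highest KRT8 minus KRT18 difference, 1.24, which contains the marked KRT18 value and so is no separate observation. It also had the lowest scaled values of KRT18 at starts 978 (0.59) and 816 (−2.35) and of KRT19 (−3.53). Scaled values of 1 array share its scale.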

How the results depend on the processing

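No difference of KRT8, KRT18 or KRT19 passed 0.05 under the alternatives, the lowest adjusted p being 0.163. Filters and leaving out an array of a group not compared do not change a difference, and scaling to all probes adds one number per array to every probe, so signs under these say little of stability. KRT8 on leaving out 1 array was 0.19 to 0.50 (300 nmol/min minus vehicle), 0.02 to 0.33 (30 nmol/min minus vehicle) and 0.05 to 0.28 (300 minus 30 nmol/min). KRT7 was left out, since no difference from vehicle is given. KRT18, 300 minus 30 nmol/min, reversed to 0.048 with the 75th percentile of all probes, 0.038 with the median, 0.048 in the series matrix and 0.085 on slides 1 and 2 alone, and leaving out 1 array gave −0.17 to 0.17. Leaving out 1 array gave −0.26 to 0.44 for KRT18 at 300 nmol/min and −0.19 to 0.51 at 30 nmol/min. KRT19 at 300 nmol/min reversed to 1.02, 1.27 and 1.02 under the same 3 scalings, 0.094 with quantile normalization, 0.042 with normexp, and 0.056 with the slide or the replicate number as a block, with −0.42 to 0.19 on leaving out 1 array. At 30 nmol/min it reversed to 0.86, 1.13, 0.86, 0.039 with quantile normalization, 0.013 with either block and 0.12 on slides 1 and 2, with −0.37 to −0.04 on leaving out 1 array. Between the doses it was −0.17 on slides 1 and 2 and −0.23 to 0.38 on leaving out 1 array. The cause of the reversals under settings other than the all-probe scalings was not tested. Probes called at 300 nmol/min, 1 in the report, were 145 with quantile normalization, 107 with normexp, 0 under the other scalings, the floor, the stricter and absent filters, slides 1 and 2 and either block, and 0 to 50 on leaving out 1 array (32 without vehicle replicate 1, 50 without vehicle replicate 2). At 30 nmol/min, 0 became 107 with quantile normalization, 36 with normexp and 0 to 36 on leaving out 1 array (34 and 36 without vehicle replicate 1 and 2). Between the doses, 0 became 1 with normexp and 1 with the replicate block, and stayed 0 on leaving out 1 array. The replicate block changed no call of a keratin. The KRT8 with KRT18 correlation was 0.57 with quantile normalization (permutation p = 0.0861), 0.51 with normexp (permutation p = 0.132) and 0.61 to 0.77 on leaving out 1 array; it missed 0.05 without vehicle replicate 2 (exact permutation p = 0.0728) or 300 nmol/min replicate 1 (exact permutation p = 0.0522). Vehicle rests on 2 arrays, and signal over background limits KRT19, KRT7 and the upstream KRT8 probes.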
